A study of Mus musculus with 12 samples.

Results

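Oocyte libraries with Khdc3-null ancestry were set against libraries of wild type ancestry, to see which small RNAs lie on the same side of wild type whether or not the animal itself lacks Khdc3. All 12 libraries of the series enter. The first 4 came from Khdc3-null mice, and a further 4 from mice that are themselves wild type but had Khdc3-null grandfathers and wild type grandmothers, called descendants here. Together they are the 8 ancestry libraries, and the other 4 came from wild type mice with wild type ancestors. The labels put each library in its group by genotype and ancestry. Replicate numbers were assigned here, in the order of the samples within each group, and are not from the labels. Oocytes were picked by hand from ovaries that had received no stimulation. Strain, age, the allele of Khdc3, the generation between grandfather and descendant, and the number of animals or oocytes per library are not given in the sources used here, so p-values refer to the spread between libraries, which may be technical. All 2030 listed features were used, of which 1123 are miRNA features, mostly hairpins, 467 are piRNA loci, 435 are tRNA loci and 5 are forms of rRNA. Of these, 1889 were abundant enough to be tested, that is, they reached 1.61 RPM (mapped reads scaled to a common total, 10 reads in a library of median size) in 4 or more libraries.

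Khdc3 codes for a protein of the subcortical maternal complex, an assembly that oocytes lay down for the early embryo, and mothers without it produce embryos with errors of chromosome number. A miRNA is cut from a hairpin precursor and pairs with messenger RNAs mainly through its seed, bases 2 to 8 from its 5′ end, which lowers their translation or stability. piRNAs silence transposons in germ cells, and fragments of tRNAs are abundant in mouse sperm, where they have been studied as carriers of paternal effects. In mouse oocytes the miRNA pathway is known to have little activity, while small RNAs remain present.

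The mature sequences printed next are a selection from the hairpins described below. Those of Mir7224, Mir6947, Mir135a-2, Mir150, Mir188 and Mir3094, the 5p arm of Mir107 and the 3p arm of Mir431 are left out. All 13 miRNA hairpins that stood on the same side of wild type in both ancestry groups were looked up, and 12 had mature sequences in RefSeq (GRCm38.p6), 20 in all with 20 different seeds, so no seed was shared among them. The table counts reads per hairpin, so which arm was read is not known. Capitals mark the seed. miR-103-3p is shown because it shares the seed of miR-107-3p and differs from it by 1 base, C22G, counted from 1 at the 5′ end of miR-107-3p. The let-7 sequences are shown because that family had the most members below wild type at an unadjusted p under 0.05 among the miRNA lists.
mmu-miR-107-3p: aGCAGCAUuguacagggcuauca
mmu-miR-103-3p: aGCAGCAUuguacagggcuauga
mmu-miR-6384: gCUUUCCUacuguuucccug
mmu-miR-7656-5p: uGUGGGAUcagauagccuguua
mmu-miR-7656-3p: aCAGGCUGucugaucccacggu
mmu-miR-1983: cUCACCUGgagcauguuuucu
mmu-miR-1247-5p: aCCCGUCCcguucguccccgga
mmu-miR-1247-3p: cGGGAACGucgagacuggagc
mmu-miR-431-5p: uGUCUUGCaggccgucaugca
mmu-let-7a-5p: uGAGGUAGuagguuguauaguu
mmu-let-7b-5p: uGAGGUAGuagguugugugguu
mmu-let-7c-5p: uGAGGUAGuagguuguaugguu
mmu-let-7d-5p: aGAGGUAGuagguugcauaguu
mmu-let-7f-5p: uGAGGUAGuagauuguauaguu

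Mapped reads ranged from 2918620 to 7294254 in Khdc3-null, from 5576835 to 7640554 in descendant and from 4048534 to 7207786 in wild type libraries. Where a library holds 0 reads of a feature, up to 3 reads remain possible from counting error alone, or 0.393 to 1.03 RPM depending on the library. Khdc3-null replicate 1 stood apart, with a median correlation of 0.918 with the other libraries, against 0.946 to 0.961 for each of the rest, and with reads on the fewest features, 1880 against 1943 to 1972. Counts and family results that change without it are given both ways, while most single features are given with it only. The deposited features hold no messenger RNA, so the oocyte label could not be checked against oocyte markers. Markers of other cells were abundant in every group: the 19 hairpins listed for smooth muscle, stroma and vessels summed to 14763 to 18251 RPM in Khdc3-null, 11329 to 14068 RPM in descendant and 14191 to 19057 RPM in wild type libraries, and the 12 for granulosa cells to 6424 to 7918 RPM in Khdc3-null, 6811 to 7878 RPM in descendant and 6580 to 8382 RPM in wild type libraries. Every descendant sum of the stroma and vessel markers was below every wild type sum. Much of the stroma and vessel sum came from Mir10b, Mir143 and Mir99a (means of 3666, 2975 and 2114 RPM). Much of the granulosa sum came from Mir31 and Mir322 (2922 and 2556 RPM). Markers of tissues absent from the ovary also had reads, 1554 to 2793 RPM per library. The part of smooth muscle, stroma, vessel and granulosa cells in the libraries was not tested.

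No small RNA differed between ancestry and wild type libraries after adjustment. With limma's moderated test on log2(RPM + 1), 0 of 1889 features (0%) passed a Benjamini-Hochberg adjusted p of 0.05, and the lowest adjusted p was 0.343. At an unadjusted p under 0.05 stood 66 features (3.49%), 24 of them higher (1.27%) and 42 lower (2.22%) in ancestry libraries. By class, these were 19 higher and 28 lower miRNA features, 4 higher and 6 lower tRNA loci, and 1 higher and 8 lower piRNA loci named after a chromosome band. No piRNA locus named after a gene and no rRNA form was among them. Under median-of-ratios scaling the split was 34 higher and 26 lower, without Khdc3-null replicate 1 it was 37 higher and 78 lower, and without wild type replicate 2 it was 16 higher and 25 lower. limma-voom on the reads also called 0 features after adjustment, with 17 higher and 66 lower at an unadjusted p under 0.05. Over all tested features, at any p, 1111 (58.8%) were lower and 778 higher in ancestry libraries, with a median difference of -0.04 on the log2 scale. The 95% interval excluded a 2-fold difference of RPM + 1 in 1214 features (64.3%).

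Each ancestry group was next compared with wild type by itself, in the same fit. Khdc3-null libraries had 29 features higher and 66 lower at an unadjusted p under 0.05, with a lowest adjusted p of 0.147. Descendant libraries had 34 higher and 43 lower, with a lowest adjusted p of 0.813. In both groups at once, 7 features were higher (0.371%) and 8 lower (0.424%), and 0 stood at an unadjusted p under 0.05 on opposite sides. Both comparisons use the same 4 wild type libraries, so a wild type value that is high or low by itself puts a feature on the same side in both. Between descendant and Khdc3-null libraries 69 features were higher and 52 lower at an unadjusted p under 0.05, with a lowest adjusted p of 0.451. The counts of 7 and 8 depended on single libraries: without wild type replicate 4 the higher count was 13, and the lower count was 21 without Khdc3-null replicate 1 or wild type replicate 1, 5 without Khdc3-null replicate 3, Khdc3-null replicate 4 or wild type replicate 2, and 3 without wild type replicate 3.

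**Figure D1:**
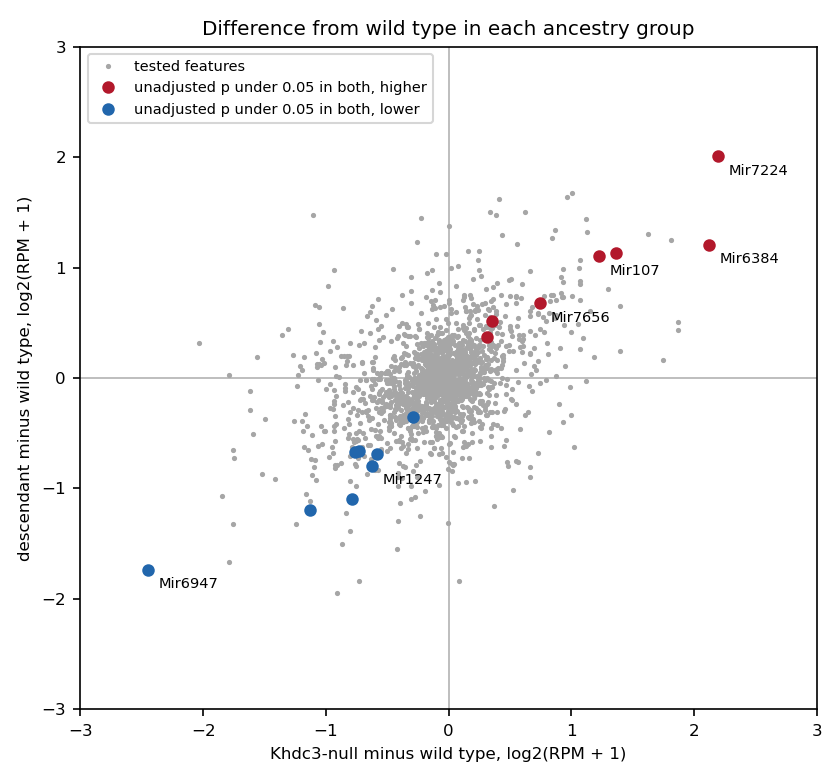
Difference from wild type on the log2(RPM + 1) scale in Khdc3-null (horizontal axis) and descendant (vertical axis) oocytes for the 1889 tested features, 1 point each. The 15 coloured points had an unadjusted p under 0.05 in both groups, from Mir7224 at 2.20 and 2.01 to Mir6947 at -2.45 and -1.74. The axes share the wild type libraries, so the slant of the cloud is not a sign of shared change.

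Of the 15 features on the same side in both groups, 13 are miRNA hairpins, 1 is a tRNA locus and 1 a piRNA locus, and 7 of the hairpins lie in an intron of a protein-coding gene on its strand. Their mean abundance over all libraries ranged from 3.20 to 508 RPM, and 12 reached 10 RPM. The descendant mean lay between the Khdc3-null and the wild type mean for 9 of them, and the Khdc3-null mean lay between the other two for 6. Descendant and Khdc3-null libraries differed from each other at an unadjusted p under 0.05 for 1 of the 15, Mir6384. Without Khdc3-null replicate 1, 8 of the 15 stayed at an unadjusted p under 0.05 in both groups. A stricter criterion was an absence of overlap between all 8 ancestry and all 4 wild type libraries. It was met by 4 features above (0.212%) and 2 below (0.106%), all 6 of them among the 15. Together they are 0.318% of the tested features. Without any difference between the groups, such a separation on either side has a probability of 0.00404 per feature, so their number was not above that rate. With rRNA left out of the scaling total, 4 of the 6 stayed without overlap, 1 of them below. The count above was 7 without descendant replicate 4 and 14 without wild type replicate 4. The count below grew to between 4 and 8 in 11 of the 12 fits that left out a library, all but that without Khdc3-null replicate 4.

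**Figure D2:**
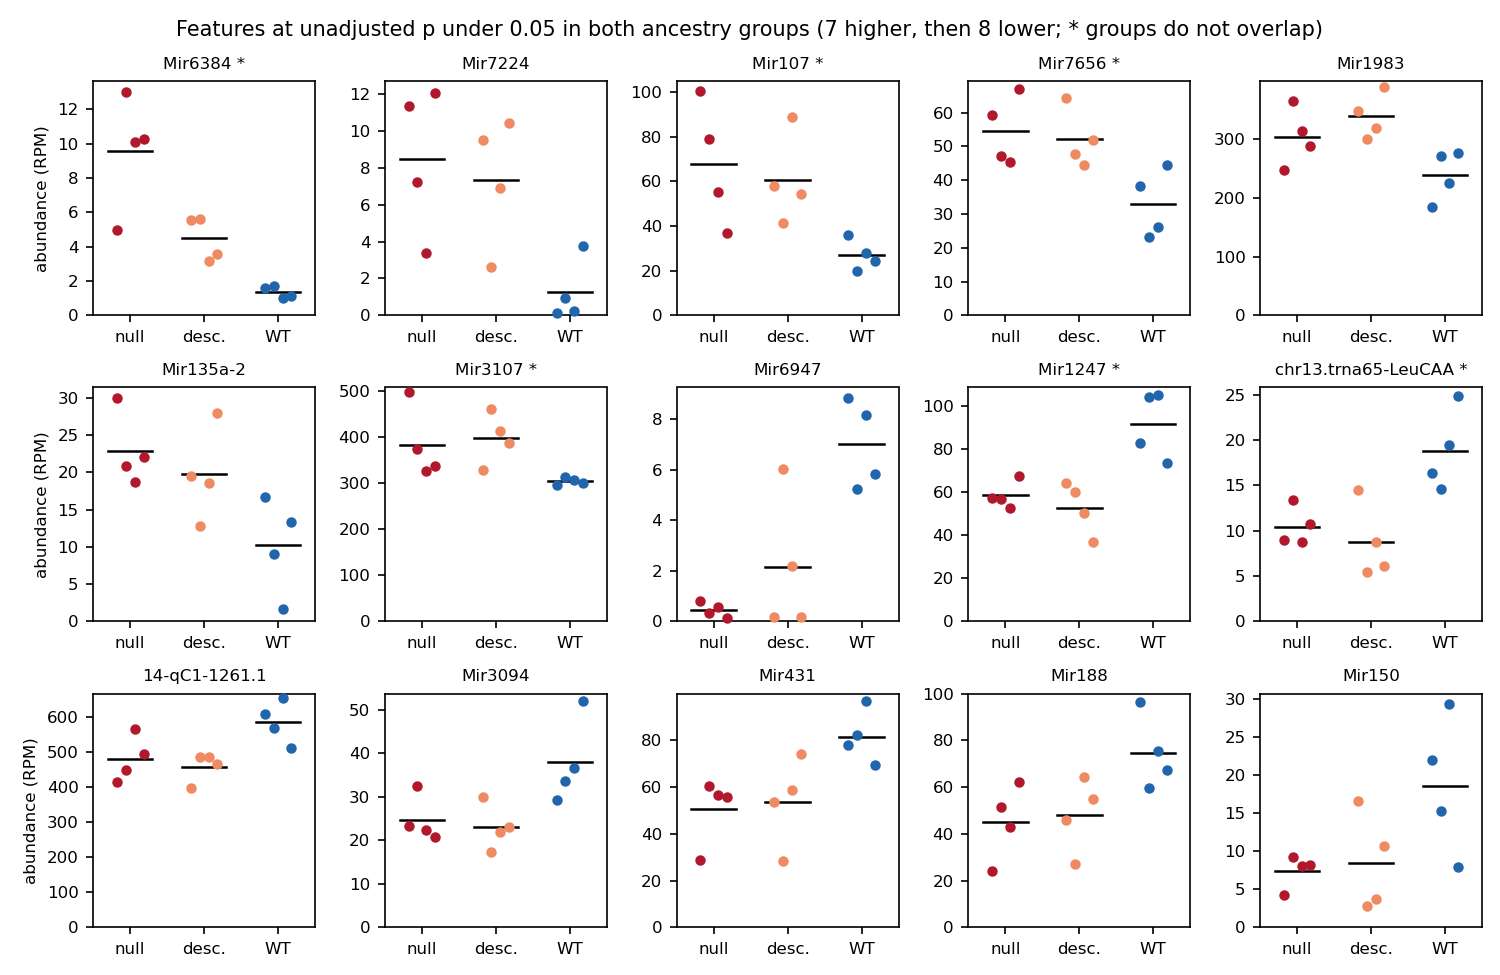
Abundance in RPM of the 15 features with an unadjusted p under 0.05 on the same side of wild type in both ancestry groups, in Khdc3-null (null), descendant (desc.) and wild type (WT) libraries. Points are libraries, 4 per group, and bars are group means. An asterisk marks the 6 features whose 8 ancestry libraries do not overlap the 4 wild type libraries, such as Mir107 (37.0 RPM or more in ancestry and 36.2 RPM or less in wild type libraries).

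Among the features wholly above wild type, Mir107 had the widest difference of those over 10 RPM. It lies in an intron of Pank1 (mm10 chromosome 19, 34820687 to 34820773, minus strand), a pantothenate kinase gene of coenzyme A synthesis, and its miRNA is known to lower insulin sensitivity in mouse liver and fat. It had 101, 79.1, 55.2 and 37.0 RPM in Khdc3-null, 58.1, 41.2, 89.0 and 54.5 RPM in descendant, and 36.2, 19.9, 28.2 and 24.6 RPM in wild type libraries. The highest wild type library was just under the lowest ancestry library, and the values within each ancestry group spread more than 2-fold. Ancestry minus wild type was 1.17 on the log2(RPM + 1) scale (SE 0.27, 95% interval 0.58 to 1.75, adjusted p = 0.343 with limma), higher in 8 of 8 ancestry libraries than in any wild type library. Taken alone, Khdc3-null oocytes gave 1.23 and descendant oocytes 1.11, and the pooled value lay between 1.03 and 1.31 over all other settings run.

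Mir103-1 and Mir103-2, which lie in introns of the sister genes Pank3 and Pank2 and give the miR-103-3p shown above, had lower pooled means in ancestry libraries. Mir103-1 had 192 ± 20.7 RPM in Khdc3-null, 183 ± 26.0 RPM in descendant and 199 ± 26.5 RPM in wild type libraries (SD, n = 4 each), a pooled difference of -0.08. Mir103-2 had 150 ± 16.5 RPM in Khdc3-null, 130.5 ± 21.8 RPM in descendant and 160.4 ± 6.39 RPM in wild type libraries, a difference of -0.20 (adjusted p = 0.997 for both with limma). The 3 hairpins summed to 400 to 421 RPM in Khdc3-null, 326 to 444 RPM in descendant and 344 to 404 RPM in wild type libraries, and these ranges overlapped.

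Mir6384 was the scarcest of the hairpins that did not overlap. It lies in an intron of Gpc3 (chromosome X, 52378121 to 52378181, minus strand), which codes for glypican 3, a cell-surface proteoglycan. It had 5.00, 13.0, 10.1 and 10.3 RPM in Khdc3-null, 5.56, 5.63, 3.19 and 3.59 RPM in descendant, and 1.59, 1.69, 0.988 and 1.11 RPM in wild type libraries. These rest on 201, 113 and 34 reads over the 4 libraries of each group. The groups were ordered, with 3 of 4 Khdc3-null libraries above every descendant library and all descendant above all wild type libraries. Its pooled difference was 1.67 (SE 0.34, 95% interval 0.94 to 2.39, adjusted p = 0.343 with limma). Fitted without a trend of the variance on abundance, the same difference had an adjusted p of 0.0292, the 1 feature past the threshold there, and its adjusted p over all settings ranged from 0.0292 to 0.997. Descendant and Khdc3-null oocytes differed at an unadjusted p of 0.0341 with limma.

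The remaining features without overlap above wild type were Mir7656 and Mir3107. Mir7656, in an intron of Slc9a9, a sodium and proton exchanger of endosomes (chromosome 9, 94751829 to 94751890), had 59.2, 47.3, 45.4 and 67.0 RPM in Khdc3-null, 64.3, 47.8, 44.5 and 51.8 RPM in descendant, and 38.3, 23.1, 26.2 and 44.4 RPM in wild type libraries. The lowest ancestry value and the highest wild type value nearly touched. It gave a pooled difference of 0.71 (SE 0.21, adjusted p = 0.997 with limma). Mir6963, which carries the seed of miR-7656-5p, averaged 182 RPM in ancestry and 198 RPM in wild type libraries.

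Mir3107 lies on the strand opposite to Mir486, within an intron of the erythrocyte ankyrin gene Ank1 (chromosome 8, 23142573 to 23142662, minus strand). It is annotated as a second copy of Mir486, a hairpin abundant in erythroid cells and muscle, and the 2 overlap, so their reads may not be separable. Mir3107 had 498, 375, 326 and 338 RPM in Khdc3-null, 329, 463, 415 and 389 RPM in descendant, and 298, 315, 308 and 299.8 RPM in wild type libraries. Wild type libraries lay close together and every ancestry library was above them, by little for the lowest. Pooled, it differed by 0.34 (SE 0.12, adjusted p = 0.997 with limma). Mir486 had 249.6, 136, 151 and 76.2 RPM in Khdc3-null, 62.0, 129, 178 and 117 RPM in descendant, and 82.9, 87.0, 81.8 and 82.0 RPM in wild type libraries, and its groups overlapped (log2 0.59, adjusted p = 0.997). Of the 4 erythrocyte markers Mir144, Mir451a, Mir451b and Mir486, 3 were higher in ancestry libraries, and 4 under both other scalings. Their sum was 303 to 507 RPM in Khdc3-null, 312 to 458 RPM in descendant and 254 to 373 RPM in wild type libraries. Much of it came from Mir451b, on the strand opposite to Mir451a, which differed by -0.005. Mir451b averaged 214 RPM over all libraries, against 19.9 RPM for Mir451a. None of the 4 markers was at 0 reads over a group, and Mir451a ranged from 2.88 to 62.3 RPM in Khdc3-null, from 11.7 to 43.8 RPM in descendant and from 1.45 to 19.4 RPM in wild type libraries. The part of erythrocytes in the Mir3107 values was not tested.

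Higher in both groups with overlapping libraries were Mir1983, Mir7224 and Mir135a-2. Mir1983 had 248, 365, 314 and 288 RPM in Khdc3-null, 348, 301, 318 and 387 RPM in descendant, and 184, 271, 224 and 276 RPM in wild type libraries (log2 0.43, SE 0.14, adjusted p = 0.997 with limma). All descendant libraries were above all wild type libraries, while Khdc3-null replicate 1 lay among wild type. The annotated Mir1983 hairpin (chromosome 13, 21896918 to 21897049, minus strand) contains a whole isoleucine tRNA gene of RefSeq, n-TItat14 (21896938 to 21897031), and 13 of the 21 bases of the mature sequence lie in that gene. It was the 1 hairpin of the 13 that overlaps a RefSeq tRNA gene, and reads of a miRNA and of a tRNA fragment cannot be told apart there.

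Mir7224, in an intron of the galactosyltransferase gene B3galt1 (chromosome 2, 67675457 to 67675516), had 43, 21, 23 and 88 reads in Khdc3-null, 53, 20, 41 and 58 reads in descendant, and 1, 6, 1 and 27 reads in wild type libraries. Wild type replicate 4, with 3.75 RPM, was above the lowest library of each ancestry group, at 3.36 and 2.62 RPM, and the other 3 wild type libraries were below all 8. The pooled difference of 2.10 (SE 0.48, adjusted p = 0.343 with limma) was 2.54 without that library. Mir135a-2, in an intron of the long noncoding RNA Rmst (chromosome 10, 92072086 to 92072185), had 29.98, 20.9, 18.7 and 22.1 RPM in Khdc3-null, 19.5, 12.8, 18.6 and 28.0 RPM in descendant, and 16.6, 9.08, 1.73 and 13.3 RPM in wild type libraries. Its pooled difference of 1.25 (SE 0.42, adjusted p = 0.997) leant on wild type replicate 3, the lowest, and was 0.67 without it. Mir135a-1, which gives the same 5p sequence from another chromosome, differed by 0.35 (27.8 ± 4.73 RPM in Khdc3-null, 25.6 ± 3.05 RPM in descendant and 21.2 ± 6.12 RPM in wild type libraries, SD, n = 4 each).

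Below wild type, Mir1247 was the hairpin without overlap. It lies in an exon of Dio3os (chromosome 12, 110278048 to 110278129, minus strand), a noncoding RNA at the far end of the imprinted Dlk1-Dio3 domain, whose miRNAs are mostly made from the maternal chromosome. It had 57.3, 56.5, 52.4 and 67.5 RPM in Khdc3-null, 64.3, 59.9, 50.02 and 36.8 RPM in descendant, and 82.7, 104, 105 and 73.5 RPM in wild type libraries. Every ancestry library was below every wild type library. Ancestry minus wild type was -0.71 (SE 0.18, 95% interval -1.09 to -0.33, adjusted p = 0.499 with limma), and it lay between -0.81 and -0.63 over the other settings.

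Mir431, from the same domain, is encoded on the strand opposite to the coding sequence of the retrotransposon-derived gene Rtl1 (chromosome 12, 109590447 to 109590537), whose transcript it is known to cleave. It had 28.9, 60.3, 56.7 and 55.9 RPM in Khdc3-null, 53.8, 28.5, 58.6 and 74.2 RPM in descendant, and 78.1, 82.2, 96.6 and 69.2 RPM in wild type libraries. A single ancestry library, descendant replicate 4, was above the lowest wild type library. The pooled difference was -0.69 (SE 0.25, adjusted p = 0.997 with limma). With a library left out it lay between -0.78 and -0.56. Over the domain, 37 of 56 tested hairpins were lower and 19 higher in ancestry libraries, with a median of -0.09, against 58.8% lower and a median of -0.04 over all features (31 lower and 25 higher under median-of-ratios scaling or without Khdc3-null replicate 1). At an unadjusted p under 0.05 stood 3 lower members, Mir1247, Mir431 and the scarce Mir299b, and 0 higher, against 2.22% lower and 1.27% higher over all features. Mir299b averaged 3.31 ± 2.76 RPM in Khdc3-null, 1.46 ± 1.10 RPM in descendant and 6.11 ± 3.27 RPM in wild type libraries. Summed over the domain, the hairpins gave 2110 to 2685 RPM in Khdc3-null, 2268 to 2870 RPM in descendant and 2506 to 2590 RPM in wild type libraries, which overlapped.

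The other hairpins lower in both groups were Mir188, Mir3094, Mir150 and Mir6947, with overlap between the groups in each. Mir188, in an intron of the chloride and proton exchanger gene Clcn5 on chromosome X, averaged 45.3 ± 16.2 RPM in Khdc3-null, 48.1 ± 15.9 RPM in descendant and 74.7 ± 15.9 RPM in wild type libraries (SD, n = 4 each; log2 -0.72, SE 0.27). Mir3094, in an intron of Nfx1 on chromosome 4, averaged 24.8 ± 5.28 RPM in Khdc3-null, 23.0 ± 5.24 RPM in descendant and 37.9 ± 9.86 RPM in wild type libraries (log2 -0.64, SE 0.23). Mir150 is an intergenic hairpin on chromosome 7 known from mature lymphocytes. It had 4.21, 9.25, 8.03 and 8.23 RPM in Khdc3-null, 16.7, 2.75, 3.69 and 10.8 RPM in descendant, and 22.0, 15.2, 29.4 and 7.91 RPM in wild type libraries (log2 -1.16, SE 0.45). Wild type replicates 2 and 4 fell among the ancestry libraries.

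Mir150 belongs to the 6 leukocyte markers, which did not lie on a common side: 2 were higher and 4 lower, with 3 and 3 under either other scaling. Mir142, abundant in all blood cell lineages, averaged 58.5 ± 23.0 RPM in Khdc3-null, 48.8 ± 12.8 RPM in descendant and 29.8 ± 10.9 RPM in wild type libraries (log2 0.83, unadjusted p = 0.0157 with limma). Mir142b, on the strand opposite to Mir142, averaged 3.70 ± 2.36 RPM in Khdc3-null, 6.21 ± 3.68 RPM in descendant and 10.0 ± 6.87 RPM in wild type libraries (log2 -0.90). The leukocyte sum was 166 to 312 RPM in Khdc3-null, 146 to 191 RPM in descendant and 163 to 224 RPM in wild type libraries, with no member at 0 reads. The part of leukocytes in these values was not tested.

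Mir6947, in an intron of Actr8, a subunit gene of the INO80 chromatin remodeller (chromosome 14, 29988888 to 29988952), was near the detection limit in most ancestry libraries. It had 3, 1, 4 and 1 reads in Khdc3-null, 1, 46, 13 and 1 reads in descendant, and 61, 34, 33 and 42 reads in wild type libraries. Descendant replicate 2, at 6.02 RPM, fell within the wild type range of 5.23 to 8.82 RPM, and descendant replicate 3 had 2.18 RPM. The pooled difference of -2.09 on the log2(RPM + 1) scale (SE 0.48, adjusted p = 0.343 with limma) was -2.93 with 0.25 RPM added in place of 1, -0.97 with 5 RPM added, and -3.22 and -3.50 with limma-voom without and with quality weights.

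The tRNA locus without overlap, chr13.trna65-LeuCAA, had 8.94, 13.4, 8.76 and 10.7 RPM in Khdc3-null, 14.5, 5.50, 8.73 and 6.10 RPM in descendant, and 16.3, 14.6, 19.5 and 24.8 RPM in wild type libraries. Descendant replicate 1, at 14.5 RPM, was just below the lowest wild type library. Pooled, the locus differed by -0.94 (SE 0.30, adjusted p = 0.997 with limma). Of the other loci of the same anticodon, chr13.trna85-LeuCAA differed by 0.18, chr13.trna1010-LeuCAA by -0.21 and chr11.trna1911-LeuCAA by -0.61, all with overlapping groups. The first 2 of these change sign when a single library is left out, and chr11.trna1911-LeuCAA was lower in every setting run. The piRNA locus 14-qC1-1261.1 had 414, 447, 565 and 495.3 RPM in Khdc3-null, 397, 486, 485 and 465 RPM in descendant, and 608, 569, 654 and 511 RPM in wild type libraries (log2 -0.32, SE 0.11, adjusted p = 0.997 with limma). In it, 1 Khdc3-null library lay above the lowest wild type library.

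The let-7 family, which holds back proliferation and whose seed GAGGUAG was shared by the 10 hairpins with a sequence, was lower in ancestry libraries in 11 of 13 hairpins, with a median of -0.30. At an unadjusted p under 0.05 stood 8 of them, all lower (Mirlet7c-1, Mirlet7c-2, Mirlet7b, Mirlet7f-2, Mirlet7a-2, Mirlet7d, Mirlet7e and Mirlet7k), against 42 lower of 1889 features (2.22%), and the lowest adjusted p was 0.997 with limma. Those 10 hairpins give 8 different 5p sequences, and reads of hairpins with the same mature sequence cannot be told apart, so the members are not separate measurements. Mirlet7b had 3139, 2104, 1820 and 1932 RPM in Khdc3-null, 1466, 2157, 2169 and 1757 RPM in descendant, and 2153, 2759, 2899 and 2435 RPM in wild type libraries (log2 -0.33, SE 0.15). Mirlet7d had 1335, 1144, 1035 and 1106 RPM in Khdc3-null, 1039, 1005, 1312 and 1155 RPM in descendant, and 1209, 1235, 1522 and 1628 RPM in wild type libraries (log2 -0.29, SE 0.11). In both hairpins Khdc3-null replicate 1 was the highest ancestry library, above every wild type library for Mirlet7b and within the wild type range for Mirlet7d.

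The family sum shows the same library. It was 22842, 16754, 14324 and 15564 RPM in Khdc3-null, 13078, 15605, 19061 and 15301 RPM in descendant, and 16770, 20734, 22908 and 21144 RPM in wild type libraries. Without Khdc3-null replicate 1, 10 of the 13 were lower at an unadjusted p under 0.05 in the pooled comparison, with a lowest adjusted p of 0.475, and 9 were so in both ancestry groups, against 0 with all libraries. limma-voom with quality weights, with all 12 libraries in, gave 10 pooled and 9 in both groups, and without descendant replicate 3 there were 11 pooled and 2 in both. Conversely, without wild type replicate 3, the library with the highest sum, 1 of the 13 was left, and over the 12 fits that each left out a library the count ran from 1 to 11. It was also 1 under median-of-ratios scaling and 1 without the variance trend, while 11 of 13 were lower under each scaling. Khdc3-null replicate 1 also had the highest sum of the markers of tissues absent from the ovary, 2793 RPM, against 1554 to 1975 RPM in the other 11 libraries. Of the stroma and vessel markers 16 of 19 were lower in ancestry libraries, against 58.8% of all features. By group, 17 were lower in descendant oocytes against 6 in Khdc3-null oocytes alone. Mir152 alone passed an unadjusted p of 0.05, where 2.22% of all features were lower. It averaged 149 ± 13.0 RPM in Khdc3-null, 178 ± 41.2 RPM in descendant and 209 ± 17.9 RPM in wild type libraries (log2 -0.37). The part of such cells in the let-7 values was not tested, and in bulk libraries fewer cells of a type and less RNA per cell cannot be told apart.

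Mirlet7k was the exception within the family. It had 63.1, 66.5, 82.4 and 81.6 RPM in Khdc3-null, 127, 132, 129 and 101 RPM in descendant, and 105, 134, 113 and 123 RPM in wild type libraries. All Khdc3-null libraries were below all others, while descendant and wild type libraries overlapped. It differed by -0.69 in Khdc3-null and by 0.04 in descendant oocytes, and descendant against Khdc3-null had an unadjusted p of 0.000366 with limma. Mirlet7j and Mirlet7i were the members not lower, at 0.38 and 0.00, and the sign of Mirlet7i depended on the library left out.

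**Figure D3:**
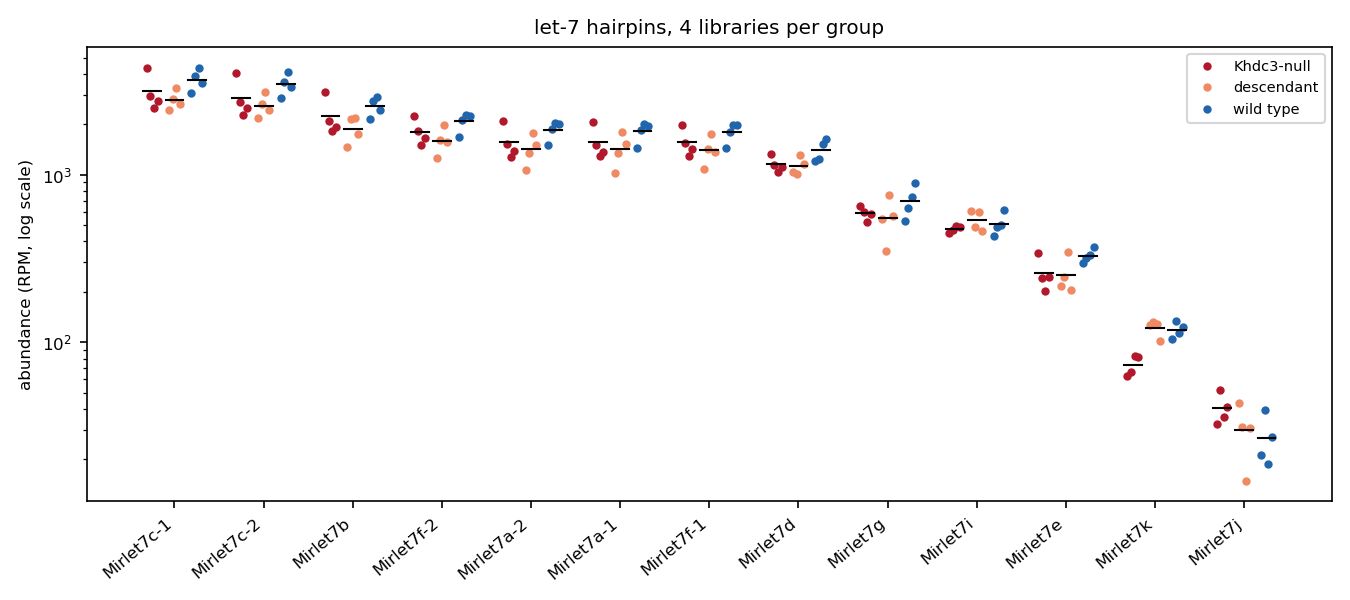
Abundance of the 13 let-7 hairpins in RPM (log axis), ordered by mean, in Khdc3-null, descendant and wild type libraries, left to right within each hairpin. Points are libraries, 4 per group, and bars are means. In the abundant members the highest Khdc3-null point is replicate 1 (3139 RPM for Mirlet7b), and Mirlet7k is low in Khdc3-null libraries alone (63.1 to 82.4 RPM).

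Among the other miRNA families, the miR-26, miR-15/miR-16 and miR-130/miR-301 families each held 1 member at an unadjusted p under 0.05, against 3.49% of all features. All 3 hairpins of the miR-26 family were lower when pooled, although 2 of them, Mir26a-1 and Mir26a-2, were higher in Khdc3-null oocytes (0.06 and 0.05). Its other member, Mir26b, averaged 303 ± 78.6 RPM in Khdc3-null, 261 ± 46.2 RPM in descendant and 389 ± 59.3 RPM in wild type libraries (log2 -0.48, adjusted p = 0.997 with limma). Without Khdc3-null replicate 1 all 3 were lower at an unadjusted p under 0.05. Of the miR-15/miR-16 family, 5 of 8 were lower and 3 higher (3 lower and 5 higher under median-of-ratios scaling). Its member Mir195a had 354, 406, 357 and 355 RPM in Khdc3-null, 194, 236, 346 and 265 RPM in descendant, and 399, 354, 552 and 485 RPM in wild type libraries, so the difference of -0.53 lay mostly in descendant oocytes (-0.79, against -0.26 in Khdc3-null). In the miR-130/miR-301 family, 2 of 5 were higher, with Mir301 at 5.89 ± 1.73 RPM in Khdc3-null, 10.6 ± 5.46 RPM in descendant and 2.88 ± 2.11 RPM in wild type libraries (log2 1.30). Of 35 tested miRNAs with roles in lipid and glucose metabolism, 14 were higher and 21 lower when pooled (18 and 17 under median-of-ratios scaling). The groups differed in this, with 22 higher and 13 lower in Khdc3-null and 12 higher and 23 lower in descendant oocytes. In the pooled comparison 3 reached an unadjusted p of 0.05, Mir107 and Mir802 higher and Mir26b lower, against 3.49% of all features. Mir802, a regulator of glucose metabolism in mouse liver, averaged 9.80 ± 4.08 RPM in Khdc3-null, 8.53 ± 4.60 RPM in descendant and 4.25 ± 2.32 RPM in wild type libraries. The Sfmbt2 cluster is a rodent repeat array in an intron of an imprinted gene. Its list was drawn up by name and also holds hairpins from elsewhere, such as Mir466i in an intron of Cdk13 on chromosome 13. Of the 58 listed hairpins 16 were abundant enough to test, 7 higher and 9 lower. At an unadjusted p under 0.05 stood 2 higher and 1 lower, against 1.27% and 2.22% of all features.

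Several lists held 0 members at an unadjusted p under 0.05, against 3.49% of all features. They were the miR-99, miR-100 and miR-125 families with 6 of 6 lower (5 under median-of-ratios scaling), the miR-322 to miR-503 cluster with 5 of 5 lower (4 under that scaling), the miR-29 family with 4 of 4 lower (3 under that scaling), and the miR-30 family with 4 of 7 higher. They further included the miR-17 to miR-92 cluster and paralogs with 9 of 15 higher, the miR-200 and miR-183 families with 6 of 8 higher, the miR-290 cluster with 7 of 9 lower (5 without Khdc3-null replicate 1), and the miRNAs of the Hox clusters with 4 of 6 higher. In other settings some of these held calls at that p: the miR-99, miR-100 and miR-125 families 2 lower without Khdc3-null replicate 1, the miR-17 to miR-92 list 1 higher under median-of-ratios scaling, and the Hox list 1 higher under both other scalings and 2 higher and 1 lower without Khdc3-null replicate 1. The directions above are those of the pooled comparison. By group, the miR-290 cluster had 8 of 9 lower in Khdc3-null and 4 of 9 in descendant oocytes. The miR-99, miR-100 and miR-125 families had 4 of 6 lower in Khdc3-null and 6 of 6 in descendant oocytes. For the miR-322 to miR-503 cluster it was 3 of 5 and 5 of 5, and for the miR-29 family 3 of 4 in each. The 12 granulosa markers were all lower when pooled, by a median of -0.08, against 58.8% lower and a median of -0.04 over all features. Of the markers, 8 of 12 were lower under median-of-ratios scaling and 10 with rRNA left out of the total. By group, 9 of them were lower in Khdc3-null and 8 in descendant oocytes. Of the 19 markers of tissues absent from the ovary 8 were higher and 11 lower (11 higher and 8 lower without Khdc3-null replicate 1).

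**Figure D4:**
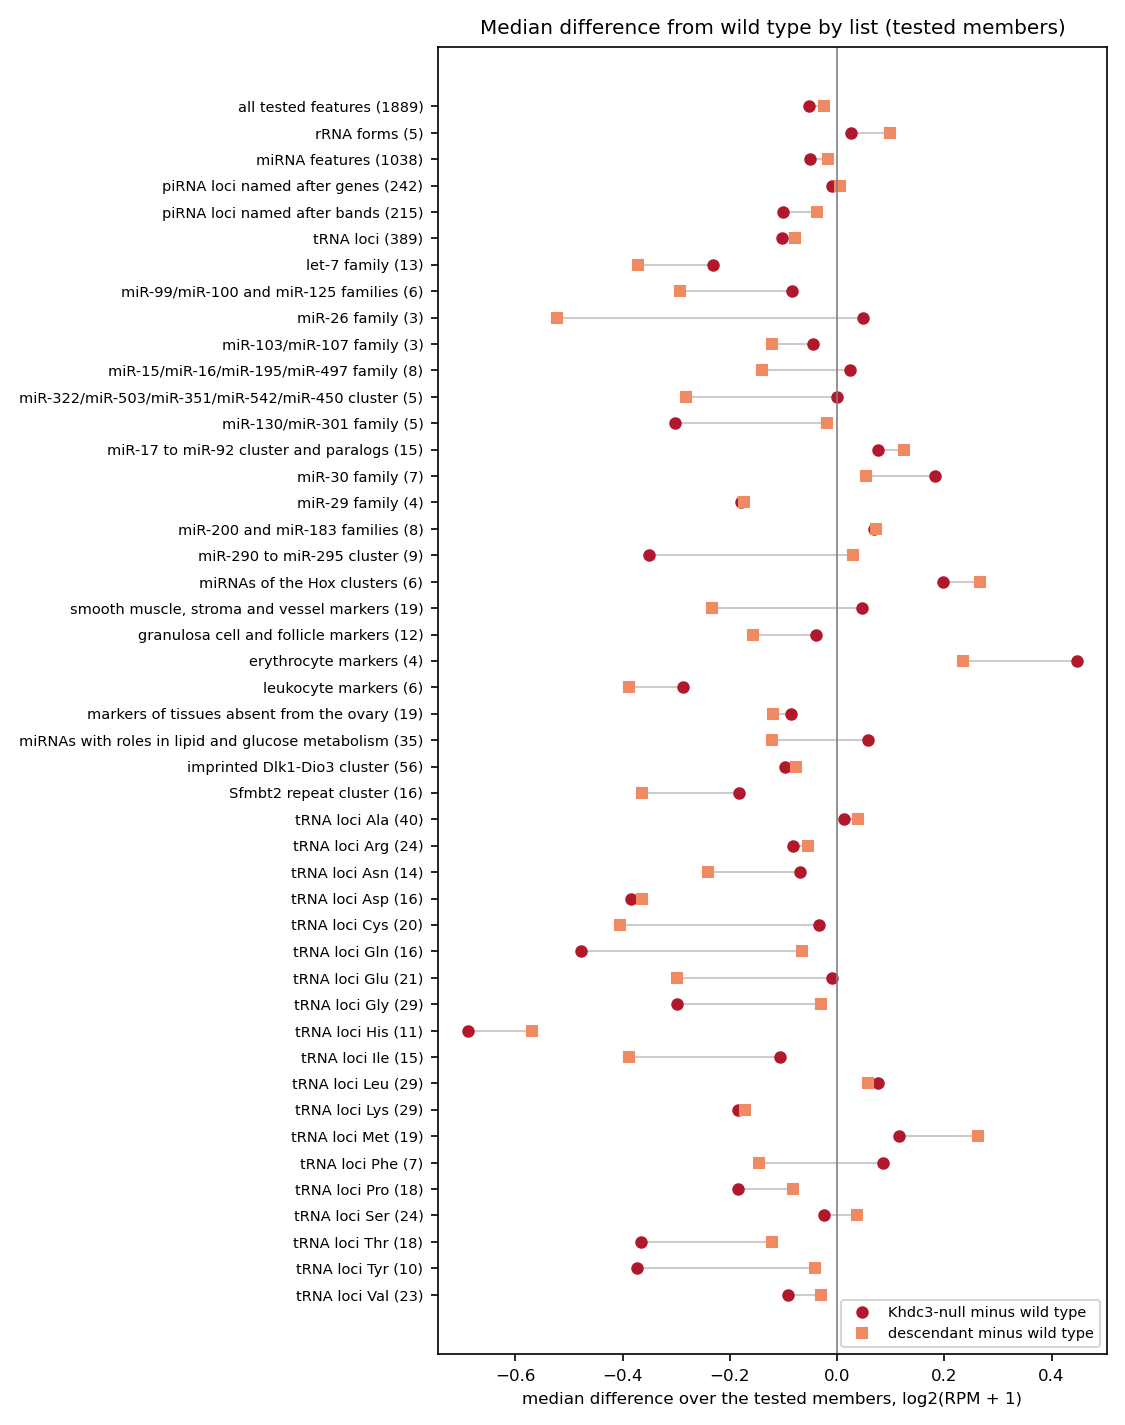
Median difference from wild type over the tested members of each list, on the log2(RPM + 1) scale, in Khdc3-null (circles) and descendant (squares) oocytes, with the number of tested members in brackets, for all lists and for amino acids with 5 or more tested tRNA loci. Histidine tRNA loci lie farthest to the left in both groups (-0.69 in Khdc3-null and -0.57 in descendant), and erythrocyte markers farthest to the right in Khdc3-null oocytes (0.45).

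Of the 389 tested tRNA loci, 264 were lower and 125 higher (227 and 162 under median-of-ratios scaling), with a median of -0.10 on the log2 scale, against 58.8% lower and a median of -0.04 over all features. All 11 histidine loci were lower, by a median of -0.66, and 15 of 16 aspartate loci, by -0.37. Asparagine loci were lower in 13 of 14, glycine loci in 23 of 29 and glutamate loci in 17 of 21, while methionine loci were higher in 16 of 19, by a median of 0.18. These counts differed by at most 2 loci under the other scalings. At an unadjusted p under 0.05 stood chr4.trna1691-HisGTG, chr10.trna866-AspGTC and chr13.trna111-MetCAT among them. chr10.trna866-AspGTC had 265, 238, 207 and 238 RPM in Khdc3-null, 408, 341, 253 and 247 RPM in descendant, and 212, 463, 467 and 439 RPM in wild type libraries, and wild type replicate 1 fell among the ancestry libraries. Without Khdc3-null replicate 1, whose tRNA share was the highest at 9.05% of listed reads, 7 histidine, 7 aspartate, 9 glutamate and 4 glycine loci were lower at an unadjusted p under 0.05, against 1, 1, 0 and 0 with all libraries. That fit put 78 of the 1889 features there, against 42 with all libraries. Loci of a tRNA family can be near-identical in sequence, so their counts are not independent.

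piRNA loci named after a chromosome band were lower in 141 of 215 and those named after a gene in 124 of 242, with medians of -0.07 and -0.004, and under median-of-ratios scaling 122 and 86 were lower. The 8 lower band loci at an unadjusted p under 0.05 differed by -0.44 to -0.19 and averaged 94.4 to 689 RPM, where 2.22% of all features were lower at that p. Their number was 3 under median-of-ratios scaling, 5 with rRNA left out of the total and 4 without Khdc3-null replicate 1. They include both members of 2 locus pairs, 10-qC1-2617.1 with 10-qC1-2617.2 and 10-qB5.1-5404.1 with 10-qB5.1-5404.2. The single one higher was the scarce 1-qE2.3-2.1, at 4.48 ± 1.28 RPM in Khdc3-null, 3.97 ± 2.03 RPM in descendant and 1.86 ± 1.42 RPM in wild type libraries. As a share of listed reads, miRNA features held 15.9% ± 0.730 in ancestry (SD, n = 8) and 16.4% ± 0.533 in wild type libraries (SD, n = 4; exact permutation p = 0.206, adjusted p = 0.797 over 4 classes). piRNA loci held 19.4% ± 1.17 in ancestry and 19.8% ± 0.611 in wild type libraries (exact permutation p = 0.598). rRNA held 57.0% ± 1.80 in ancestry and 56.2% ± 0.624 in wild type libraries (exact permutation p = 0.42). tRNA loci held 7.70% ± 0.804 in ancestry and 7.65% ± 0.510 in wild type libraries (exact permutation p = 0.954). The smallest p that 8 libraries against 4 allow is 0.00404. The most abundant features, the 45S, 28S and 18S rRNA forms, chr13.trna71-AlaAGC and pi-D10Wsu102e.2, differed by 0.04, 0.03, 0.00, 0.14 and -0.16 on the log2 scale, all at an adjusted p of 0.997 with limma.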

How the data were processed

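Small RNA was sequenced from mouse oocytes in 12 libraries. Per the labels' protocols, RNA came from the PicoPure kit and was made into NEXTFLEX small RNA libraries. The submitters' processing notes name Bowtie2 (version not given) and mm10. The authors deposited RPM per feature with 1 added to every value. Counting, and the handling of reads that map to several loci, are not given in the sources used here.

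Here 1 was subtracted from every value. All values (100%) were then whole multiples of 1 read within 0.01 reads, and the size of that unit gave each library's depth in mapped reads, of which listed features held 87.8% to 96.3%. Reads carry no molecular identifiers. log2(RPM + 1) of features with at least 1.61 RPM in at least 4 libraries was fitted with limma 3.58.1 (R 4.3.3) with a variance trend and 3 group means. The contrast was the mean of Khdc3-null and descendant minus wild type, with Benjamini-Hochberg adjustment over 1889 features. Class shares were compared by exact two-sided permutation over libraries. Alternatives were other pseudocounts, filters and scalings, 2 pooled groups, limma-voom with and without quality weights, summed copies, and each library left out. Count models other than limma-voom were not run, since the deposited unit is RPM. The fit was tested on simulated data.

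Named features are those past an adjusted p of 0.05 (0), the 10 of smallest p without overlap on each side, the 2 most abundant of each list, the 5 most abundant of all, and any with at least 3 reads in all libraries of one side and 0 in the other (0). The 9 other features on the same side in both groups, and list members at an unadjusted p under 0.05, were added after their values were seen. Members and lists were chosen with earlier results of these data known. Positions are from GENCODE M21 on mm10. 976 of 1123 miRNA features matched the RefSeq sequence table.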

Additional observations from a re-analysis of the deposited data

Results flagged for a closer look

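In 11 of 288 tests of a single library against the other 3 of its group, 1 library lay far from its group, by Dixon's criterion. Chance gives about 1 in 20. Khdc3-null replicate 1 had 103 RPM of Mir93 (169 to 178 RPM in the other Khdc3-null libraries), 28.9 RPM of Mir431 (55.9 to 60.3) and 320066 RPM of 45S rRNA (340610 to 341413). Khdc3-null replicate 2 had 248 RPM of Mir370 (215 to 216) and 406 RPM of Mir195a (354 to 357). Descendant replicate 4 had 144 RPM of Mir103-1 (194 to 199) and 101 RPM of Mirlet7k (127 to 132). Wild type replicate 1 had 212 RPM of chr10.trna866-AspGTC (439 to 467), wild type replicate 2 had 553 RPM of Mir341 (351 to 357), wild type replicate 3 had 3483 RPM of Mir143 (2838 to 2907), and wild type replicate 4 had 967 RPM of Mir133b (731 to 743).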

How the results depend on the processing

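No paired analysis was possible because the labels give no replicate numbers. Of 95 features followed over 23 other settings, 75 kept their direction wherever they were fitted, among them all 15 on the same side in both ancestry groups. Of those 15, between 6 and 12 stayed at an unadjusted p under 0.05 in both groups when a library was left out.

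The count past an adjusted p of 0.05 was 1 without a variance trend, in place of 0. The count higher in both groups was 4 with a mean of at least 10 RPM required, and 5 to 13 with a library left out. The count lower in both groups was 5 with median-of-ratios scaling, 4 without a variance trend, 17 with limma-voom and quality weights, and 3 to 21 with a library left out. The count of features wholly below wild type was 1 with rRNA left out of the scaling total, where 4 features in all, above or below, had no overlap. With a library left out, the count wholly below was 2 to 8 and that wholly above was 4 to 14. More features can clear a smaller group, so leaving out a library can only add to these.

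The piRNA share changed sign with rRNA left out (0.0944 percentage points), and the tRNA share when a library was left out (-0.171 to 0.236). The cause was not tested.

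The 20 features that changed direction had differences of at most 0.21 on the log2 scale, and the cause was not tested. With median-of-ratios scaling the difference was 0.0136 for Mir16-2, 0.0303 for Mir16-1, 0.000389 for Mir322, 0.0238 for Mir29a, 0.0345 for Mir31, 0.0365 for Mir451b, 0.0308 for Mir146b and 0.0407 for 18S. With rRNA left out the difference was 0.00361 for Mir16-1, 0.00782 for Mir31, 0.00989 for Mir451b, 0.00434 for Mir146b and 0.014 for 18S. With limma-voom the difference was -0.00764 for Mir301b and 0.000802 for Mir291a. With quality weights in limma-voom the difference was 0.0258 for Mir291a, 0.0121 for Mir31, 0.00738 for 18S and -0.0167 for Mirlet7i. With a library left out it ran from -0.0673 to 0.0428 for Mir31, -0.12 to 0.107 for Mir451b, -0.0172 to 0.0112 for 18S, -0.156 to 0.0918 for Mir301b, -0.379 to 0.166 for Mir29a, -0.0793 to 0.18 for Mir96, -0.117 to 0.0574 for Mir146b, -0.0756 to 0.0974 for Mirlet7i, -0.11 to 0.0711 for Mir16-1 and -0.13 to 0.0395 for Mir322. It ran from -0.131 to 0.0545 for Mir16-2, -0.0722 to 0.143 for Mir93, -0.105 to 0.0249 for Mir143, -0.11 to 0.00352 for Mir106b, -0.161 to 0.0965 for Mir291a, -0.112 to 0.407 for chr13.trna85-LeuCAA, -0.466 to 0.0456 for chr13.trna1010-LeuCAA, -0.192 to 0.038 for Mir99a, -0.161 to 0.042 for Mir351 and -0.298 to 0.0465 for Mir182.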
